A study of Mus musculus with 4 samples.

Results

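Gata4 occupancy was examined beside 4 genes, Spink4, Lrig3, Arl4d and Kcnq5, which were chosen by the readout itself, since the peaks of rank 1, 2, 4 and 5 of the WT peak list lie beside them. Every peak that the deposited lists name for these genes, and every peak within 50 kb of their gene bodies in mm9, was taken. This gave 21 of the 20410 WT peaks and 17 of the 22733 DKO peaks. Because the genes were selected on WT rank, their WT heights, ranks and enrichments, and every ratio that contains them, are given as a description without a test.

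The series compared Gata4 binding in Flk1(+) mesoderm cells that either can or cannot set new DNA methylation. Mouse J1 ES cells of 129 background were used, as the WT clone labelled J1G4.2 or the DKO clone 16G4.3 with the genotype Dnmt3a-/-Dnmt3b-/-. The clone names are those of the sample labels, and the paper gives the WT clone a longer form of this name. Both clones carried, under the CAG promoter, Gata4 joined to the hormone-binding part of human glucocorticoid receptor. The cells were differentiated on OP9 stroma for 4.5 days, received 100 nM dexamethasone (Dex), which activates the fusion protein, for 3 hours, and were sorted magnetically for Flk1, a receptor on the surface of early mesoderm. Undifferentiated ES cells of each genotype without Dex gave the background, and a mixture of Gata4 antibodies was used for all 4 libraries. Each condition is 1 library, so every value describes single libraries, no replicate error can be given, and genotype cannot be told apart from clone. The read totals of the libraries were not used here, and how the heights were scaled to them is not given in the sources used here. The DKO Flk1(+) library was the more deeply sequenced, so WT over DKO height ratios may include a factor of depth, which was not tested. Peak lists hold no expression values, so the identity of the sorted cells rests on the Flk1 sort.

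Gata4 is a zinc finger transcription factor of heart, endoderm and mesoderm development that binds DNA around the letters GATA. Dnmt3a and Dnmt3b are the methyltransferases that place methyl groups on unmethylated CpG dinucleotides. Among the genes, Spink4 encodes a secreted Kazal-type inhibitor of serine proteases known from intestinal goblet cells, and Lrig3 a transmembrane protein with leucine-rich repeats and immunoglobulin-like domains. Arl4d encodes a small GTPase of the ADP-ribosylation factor-like family that acts at the plasma membrane. Kcnq5 encodes a subunit of voltage-gated potassium channels of neurons and smooth muscle.

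In each list a peak has a height, which is the level of the authors' read density profile in the Flk1(+) library, an ES height at the same position, the enrichment of the former over the latter, and a rank that follows the q-value of the peak caller. The members stood high by rank rather than by height alone. The highest Lrig3 peak was the 3rd highest of all WT peaks by height, that of Kcnq5 the 7th, that of Spink4 the 18th and that of Arl4d the 102nd. By enrichment the order was different, with the Arl4d peak 1st, the Spink4 peak 2nd, the Lrig3 peak 4th and the Kcnq5 peak 63rd. The highest WT peak of all, at a height of 816, lay on the mitochondrial chromosome, where the ES height was 269 and the rank 41. The name of highest-ranked peaks, not of tallest peaks, therefore fits the 4 genes.

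The ranks next to those of the members were held by peaks with heights from 43.2 to 108.9. Rank 3, on chromosome 4 at position 133603773 with no gene within 5 kb in the list, had a WT height of 63.9. Rank 6, on chromosome 7 at 139536573, had a height of 47.5 and lay within Fgfr2, a fibroblast growth factor receptor gene, in GENCODE, although the list names no gene there. Rank 7, in the septin gene Sept9, reached 108.9, and rank 10, in Bmp6, which encodes a bone morphogenetic protein, reached 85.2. Ranks 8 and 9 had heights of 45.1 and 43.2 and no gene within 5 kb in the list. All 10 of the highest-ranked WT peaks held a WGATAA match, with W for A or T, and all 10 overlapped a DKO peak that was lower, by 2.62-fold to 4.35-fold.

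Spink4 (ENSMUSG00000028415.4, chr4:40867085-40878428, plus strand) carried the rank 1 peak at its own promoter. The peak position, 40867020, lay 65 bp upstream of the first base of the gene. The WT height there was 75.9 with an ES height of 1.69, an enrichment of 44.9. In the DKO list a peak stood 3 bp away, with a height of 23.2 and an ES height of 0.445. The DKO peak held rank 63 and an enrichment of 23.2, because an ES height below 1 was taken as 1 in the deposited ratio. With the ES height as given the DKO enrichment would be 52.1, above that of WT. This rests on a low ES height, as 96.9% of DKO peaks had a higher one. The WT height was 3.27 times the DKO height, while the promoter was called in both genotypes at nearly the same base.

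Lrig3 (ENSMUSG00000020105.8, chr10:125403275-125452415, plus strand) had its main peak upstream of the gene, 4269 bp from the start, at position 125399006. The WT height was 126.8 over an ES height of 2.90, an enrichment of 43.7. The DKO peak, 17 bp away, had a height of 45.2 over an ES height of 3.63, an enrichment of 12.4 and rank 69. The 2.81-fold WT over DKO ratio was the lowest among the main peaks of the 4 genes. Both ES heights were high for their lists, since 15.0% of WT peaks and 4.61% of DKO peaks had higher ones.

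Arl4d (ENSMUSG00000034936.2, chr11:101526855-101529146, plus strand) is a short gene of 2 exons, and its main peak lay 3628 bp upstream, at position 101523227. The WT height was 47.8 and the ES height 0.202, which is low, as 99.7% of WT peaks had a higher ES height. The DKO peak 16 bp away had a height of 13.4, an ES height of 0.818 and rank 523. The enrichments of 47.8 in WT and 13.4 in DKO equal the heights, since both ES heights were taken as 1, and with the ES heights as given they would be 237 and 16.3. The WT height was 3.58 times the DKO height.

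Kcnq5 (ENSMUSG00000028033.9, chr1:21388484-21952023, minus strand) spans 563540 bp, and its main peak lay deep inside, in intron 11 of 14 and 512972 bp downstream of the start. WT and DKO peaks shared the same position, 21439051. The WT height was 100.8 over an ES height of 4.26, an enrichment of 23.7. The DKO height was 26.0 over an ES height of 2.88, an enrichment of 9.04 and rank 368. The WT over DKO ratio, 3.87, was the highest among the main peaks of the 4 genes, and ES heights were above most others in each list, exceeded at 5.18% of WT and 10.5% of DKO peaks.

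**Figure D1:**
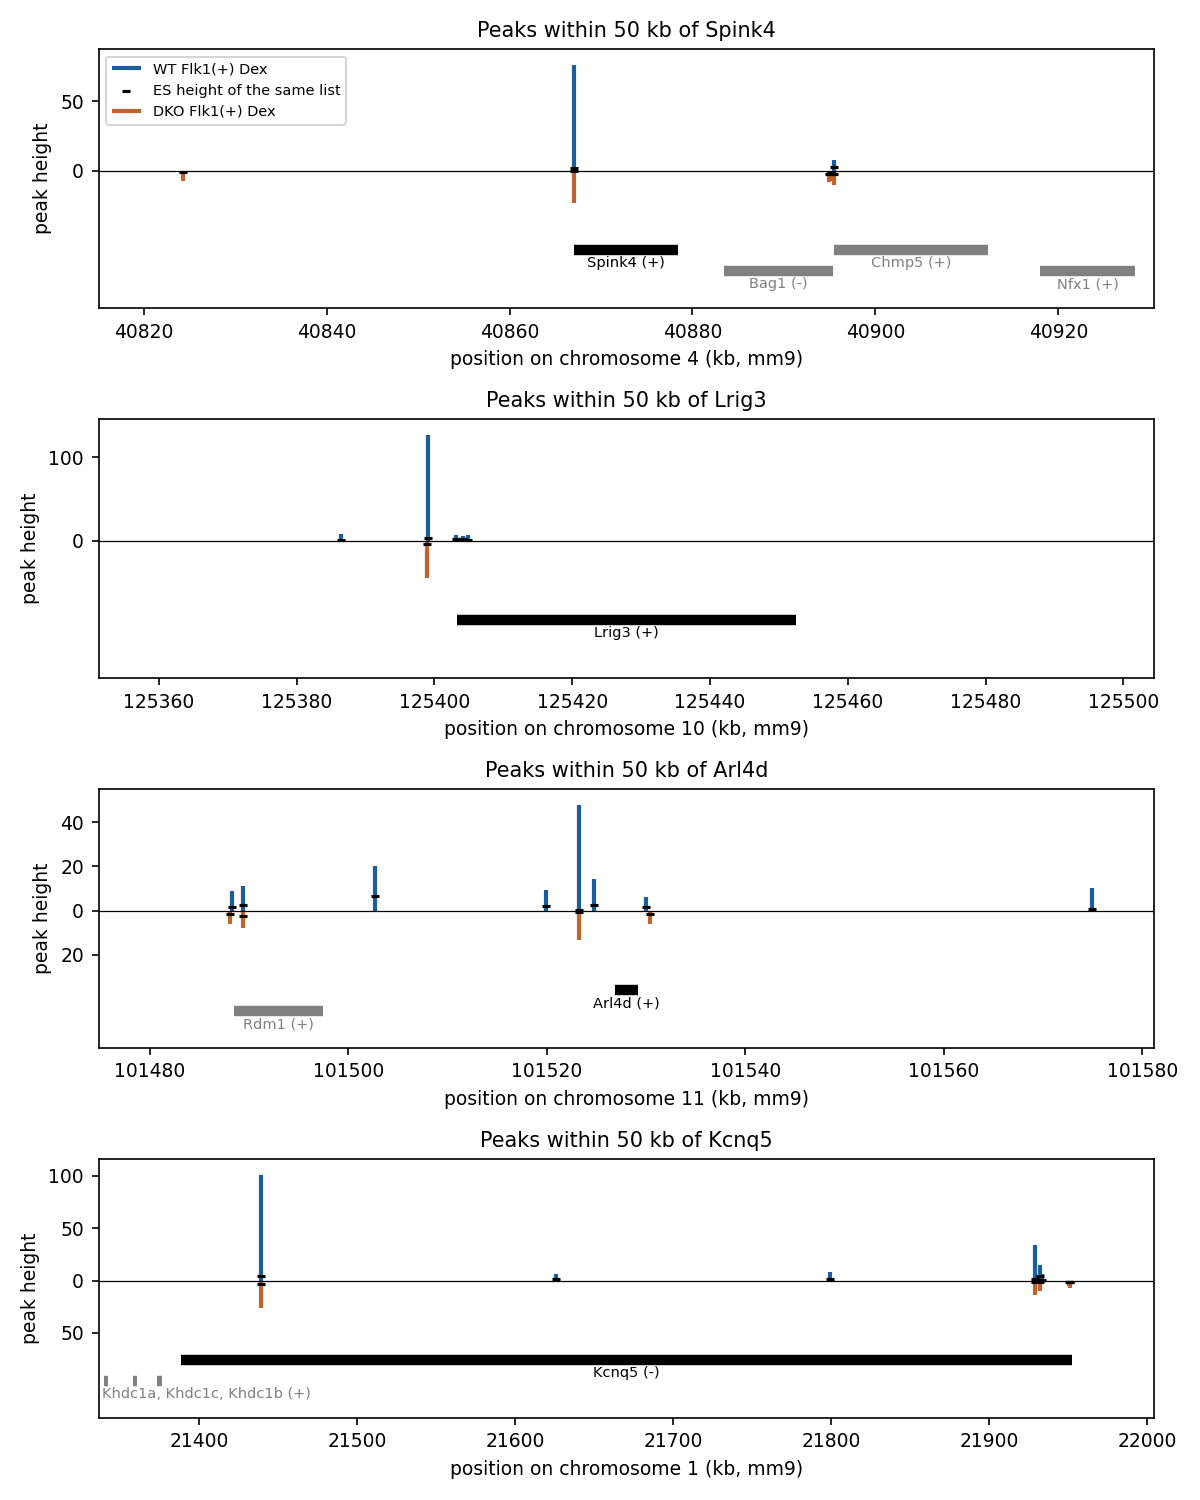
Peak heights within 50 kb of Spink4, Lrig3, Arl4d and Kcnq5, with the position in mm9 (kb) on the x axis and the height of the authors' profile on the y axis, WT Flk1(+) Dex upward and DKO Flk1(+) Dex downward, and black marks for the ES height of the same list. Each panel has its own scale, bars below show gene bodies with their strand, and the main peaks reach 75.9, 126.8, 47.8 and 100.8 in WT against 23.2, 45.2, 13.4 and 26.0 in DKO.

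Read against whole lists, the ratios at the 4 main peaks lay within the range of high-ranking WT peaks and above their median. Those of Arl4d and Kcnq5 were also above the upper quartile. Over the 9305 WT peaks that overlap a DKO peak, the WT height was a median of 1.22 times the DKO height, with quartiles of 0.942 and 1.68. Among the 96 overlapping peaks of the 100 highest WT ranks, the median was 2.63 with quartiles of 2.00 and 3.38. Of these 96, 14 had a higher ratio than Kcnq5, 20 a higher ratio than Arl4d, 29 than Spink4 and 41 than Lrig3. When peaks were taken from the 100 highest DKO ranks in place of the WT ranks, 96 overlapped a WT peak and the median ratio was 1.18. The Spink4 promoter had the highest ratio among them, 3.27, which is not free of the choice of Spink4 on WT rank.

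The peaks near the 4 genes were next set against the whole lists for overlap and for the WT over DKO ratio. Overlap with a DKO peak was found for 10 of the 21, against 45.6% of all WT peaks (95% Wilson interval 44.9 to 46.3%, which covers counting only). Conversely, 12 of the 17 in DKO had a WT peak at the place, against 45.1% of all DKO peaks, and 3 of these 12 met the same WT peak beside Bag1. The 4 main sites have a WT peak by the choice of the genes, and without them 6 of 17 WT and 8 of 13 DKO peaks had a partner. In 5 of the 10 overlapping WT peaks the height was at least 2-fold that of DKO, against 16.0% over all overlapping WT peaks, and these 5 are the 4 main peaks, picked on WT rank, and another peak of Kcnq5. The remaining 5, all of lower rank, had ratios of 0.761 to 1.48 with a median of 1.40, nearer to the median of 1.22 over all overlapping peaks. Their lower ratios cannot be told apart from the choice of the main peaks on WT rank, as the ratio contains the WT height.

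**Figure D2:**
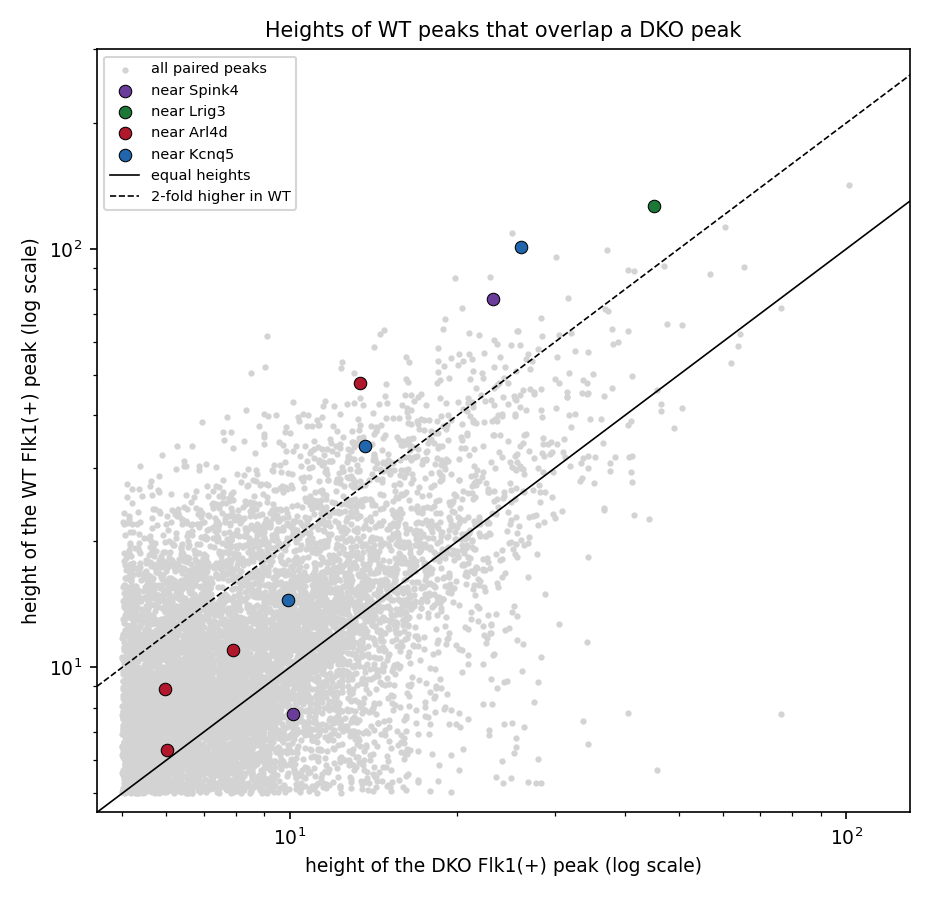
Height of each WT Flk1(+) peak (y axis, log scale) against the height of the DKO Flk1(+) peak it overlaps (x axis, log scale), for all 9305 overlapping WT peaks in grey and the 10 near the 4 genes in colour. The solid line marks equal heights and the dashed line a 2-fold higher WT height, above which 5 of the 10 coloured points lie.

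Around Spink4 the WT list held 2 peaks within 50 kb and the DKO list 6, of which 4 lay close together. The second WT peak, at 40895466, lay 26 bp inside Chmp5, which encodes an ESCRT-III subunit, close to the start of the divergent gene Bag1, which encodes a co-chaperone. Its height was 7.72 over an ES height of 2.39 in WT, and the nearest DKO peak, 50 bp away, reached 10.1 over 2.01, a ratio of 0.761. The DKO list set 4 peaks over the CpG-rich starts of Bag1 and Chmp5, from 40894916 to 40895516, with heights of 8.21, 6.21, 7.71 and 10.1. The sixth DKO peak, at 40824257, had a height of 7.19 and lay 42828 bp upstream of Spink4, nearest to B4galt1.

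Around Lrig3 the order was the other way, with 5 WT peaks and 1 DKO peak. The 4 WT peaks without a DKO partner had heights from 5.31 to 8.10, where the median of all WT peaks was 7.74 and the lowest height 5.00. They lay 16895 bp and 176 bp upstream of the start and 950 bp and 1540 bp downstream of it, in intron 1. The promoter peak at 125403099, 176 bp from the start, had a WT height of 7.13 over an ES height of 1.87 and 46 CpGs.

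Arl4d had 8 WT peaks and 4 DKO peaks, and each DKO peak overlapped a WT peak. Next to the main peak, a WT peak of height 14.3 over an ES height of 2.74 stood 2086 bp upstream of the start, and another of height 9.39 stood 6918 bp upstream, neither with a DKO partner. At 101502712 the WT height was 20.4, but the ES height of 6.61 was the highest among the 21 WT peaks, and the enrichment was 3.09. Downstream of the gene, WT reached 6.33 at 101529962, which was 1.05 times the height of the DKO peak at 101530381. Beside Rdm1, which encodes a protein related to the recombination factor Rad52, 2 WT peaks of 8.86 and 11.0 overlapped DKO peaks of 5.97 and 7.89. The WT peak at 101574915, 45769 bp past the gene end, had a height of 10.0 and no DKO partner.

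Kcnq5 had 6 peaks in each list, and 3 were shared, against 45.6% of all WT and 45.1% of all DKO peaks. Of the shared peaks, that at 21931788 in intron 1 had a WT height of 14.5 over an ES height of 4.31, and a DKO height of 9.92 over 1.38. By enrichment the DKO peak was the higher at this place, 7.16 against 3.35, while by height the WT peak was, by 1.46-fold. At the remaining shared peaks, the main peak included, WT was the higher by both measures. WT peaks at 21625820, 21799232 and 21933162 had heights of 6.62, 7.69 and 6.67 and no DKO partner. DKO peaks at 21950574, 21951074 and 21951178, all in intron 1 and 1449, 949 and 845 bp from the start, had heights of 5.11, 5.55 and 6.86 and no WT partner. No peak in either list lay within 5 kb of the neighbouring genes Khdc1a, Khdc1b and Khdc1c.

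Over all 22217 protein-coding genes of the annotation, the median number of peaks within 50 kb was 1 for WT and 2 for DKO, with upper quartiles of 3 and 4. The numbers of the members are not on a par with these. Each member has at least 1 WT peak by the choice of the genes, against 67.1% of all protein-coding genes. Longer genes take in more sequence, and Kcnq5 is the longest of the members.

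The main peaks lay in windows with fewer CpGs than the median of their list. Windows rich in CpGs were found among the lower peaks, at the starts of Lrig3, Bag1 and Chmp5 among others. The windows reach 250 bases to either side of each peak position. The main WT windows held 3 CpGs at Spink4, 4 at Lrig3, 6 at Arl4d and 2 at Kcnq5. The DKO windows at the same sites held equal numbers. Over all peaks the median window held 8 CpGs in WT and 21 in DKO. Among the 100 highest-ranked WT peaks, 81 were not above the WT median either. Of the 21 WT peaks near the members, 10 were above that WT median, near the 45.1% of all WT peaks, among them the windows with 43 CpGs at Bag1 and Chmp5, 46 at the Lrig3 promoter and 34 upstream of Arl4d. Of the 17 DKO peaks, 6 were above the DKO median, against 49.1% of all DKO peaks, the 4 at Bag1 and Chmp5 with 36 to 56 CpGs and 2 beside the Kcnq5 start with 39 and 43.

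The promoters themselves differed in CpG number in the genome, counted 250 bases to either side of the gene start. That of Spink4 held 3 CpGs, against 58 for Lrig3, 40 for Arl4d and 36 for Kcnq5. Spink4 was thus the member whose main peak lay at the promoter, and this promoter was poor in CpGs, whereas the main peaks of the others lay away from CpG-rich promoters. The methylation of these CpGs was not analysed here.

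WGATAA on either strand was found in 15 of the 21 WT windows, against 61.9% of all WT windows (95% Wilson interval 61.2 to 62.6%). It was found in 12 of the 17 DKO windows, against 38.1% of all DKO windows (37.4 to 38.7%). In the central 200 bases the counts were 13 of 21 in WT, against 52.5% of all WT peaks, and 7 of 17 in DKO, against 28.9% of all DKO peaks. In both lists, the letters were found in a lower share of the windows above the median CpG number. All 11 WT peaks near the members that were not above the median CpG number held a match, against 81.7% of all such WT peaks, and so did 4 of the 10 above it, against 37.8%. In the DKO list, 10 of 11 peaks not above the median held a match, against 63.2%, and 2 of 6 above it did, against 12.0%. These counts include the 4 main peaks, which were picked on WT rank, and high-ranked WT peaks mostly hold the letters. Without the 4 main peaks, a match was found in 11 of 17 WT and 8 of 13 DKO windows, or 9 and 3 of them in the central 200 bases. Of the windows not above the median CpG number, 7 of 7 in WT and 6 of 7 in DKO then held a match.

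The 4 main peaks each held several matches. Spink4 and Arl4d had 2 each, Lrig3 had 4 and Kcnq5 had 8. Among the 100 highest-ranked WT peaks, 96 held a match, and the median was 2 matches and 5 CpGs, so Spink4 and Arl4d had the number usual at such ranks. At least 8 matches were found in 14 of all WT windows, at least 4 in 770, and at least 2 in 6528. In each of the 4 windows the nearest match began or ended within 14 bases of the WT peak position, at 11 bases for Spink4, 14 for Lrig3, 1 for Arl4d and 10 for Kcnq5. Over all WT windows with a match this distance had a median of 33 bases and a lower quartile of 13. The closest CpG to any match was 30 bases away at Spink4, 16 at Lrig3, 12 at Arl4d and 18 at Kcnq5.

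**Figure D3:**
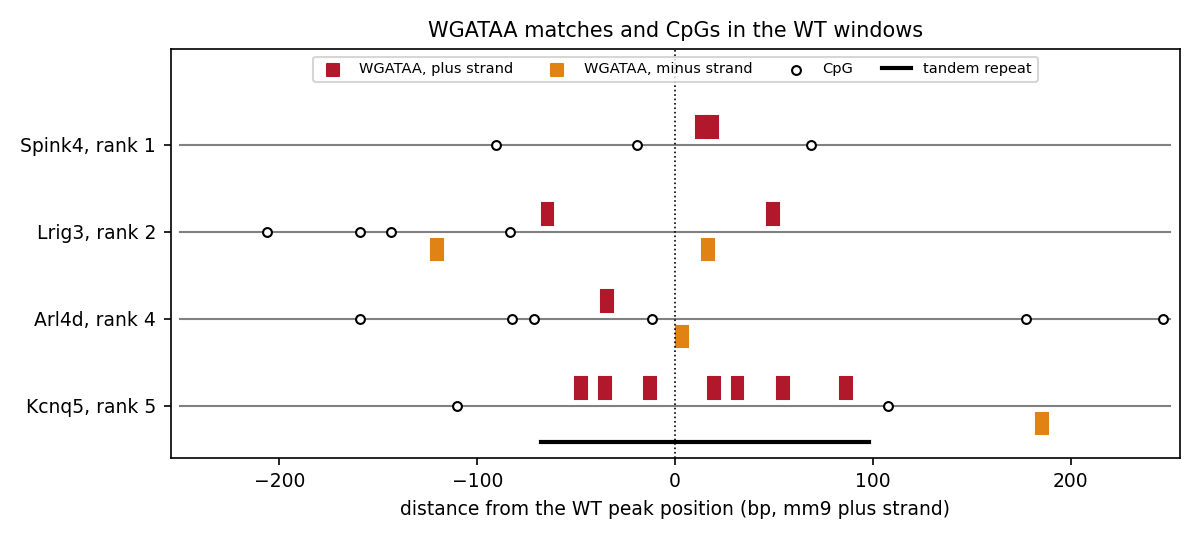
Positions of WGATAA matches (filled boxes, above the line on the plus strand and below it on the minus strand) and of CpGs (open circles) in the WT windows of the 4 main peaks, with the distance from the WT peak position in bp on the x axis. The black bar marks the tandem repeat in the main Kcnq5 window, which holds 7 of its 8 matches.

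The sequences below each peak are shown because they carry these matches. All are mm9, plus strand, 5′ to 3′, with the WGATAA matches of both strands in capitals, where a match on the minus strand reads TTATCA or TTATCT. The genome sequence is the reference, and the 129 alleles of the cells were not analysed here.
Spink4, chr4:40866960-40867080: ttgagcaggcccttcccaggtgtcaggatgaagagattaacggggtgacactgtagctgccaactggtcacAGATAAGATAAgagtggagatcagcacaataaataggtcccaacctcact
Lrig3, chr10:125398873-125399068: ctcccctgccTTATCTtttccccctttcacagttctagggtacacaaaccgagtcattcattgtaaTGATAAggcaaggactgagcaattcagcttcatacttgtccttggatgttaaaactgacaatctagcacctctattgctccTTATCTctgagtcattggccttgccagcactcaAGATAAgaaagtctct
Arl4d, chr11:101523167-101523287: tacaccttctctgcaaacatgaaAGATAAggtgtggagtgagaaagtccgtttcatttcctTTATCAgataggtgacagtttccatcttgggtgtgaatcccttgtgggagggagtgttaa
Kcnq5, chr1:21438991-21439150: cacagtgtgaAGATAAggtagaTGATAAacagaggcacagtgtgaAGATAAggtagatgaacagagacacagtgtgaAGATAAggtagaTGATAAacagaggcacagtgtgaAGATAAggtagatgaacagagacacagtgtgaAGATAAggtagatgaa

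The arrangement of the letters differed between the members. At Spink4 the 2 matches overlap on the same strand so that GATAA follows directly on GATAA, a tandem that was found in 1.11% of all WT windows and in no other of the 4 windows. At Lrig3 the 4 matches alternate between strands over the window, and TGANTCA, the letters bound by AP-1 factors such as Fos and Jun, overlaps none of them but stands beside the match nearest to the peak position. TGANTCA was found in 18.0% of all WT windows and, among the 4 windows, at Lrig3 alone. At Arl4d the matches face opposite ways, on the plus strand 37 bases before the peak position and on the minus strand 1 base after it.

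The main Kcnq5 window includes a tandem repeat. Over 167 bases, chr1:21438983-21439149, the sequence repeated itself with a period of 67 bases, and the stretch of 100 bases that equals the sequence 67 bases further on contained no mismatch. The repeat covers 2.49 copies, holds 3 matches per copy, 7 of the 8 matches in the window and 0 CpGs. A stretch of equal or greater length, at any period from 20 to 200 bases, was found in 0.0833% of all WT windows (17 windows). Reads from such copies can be hard to place, and the part of read placement in the Kcnq5 heights was not tested. In the lower-case marking of the deposited sequences, which flags repeats and low complexity, 201 bases of this window were marked, against 155 at Arl4d, 91 at Lrig3 and 0 at Spink4.

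Relatives of the members were looked up from a list of 11 genes. Of the 11, 9 had a WT peak within 50 kb, against 67.1% of all protein-coding genes, and 9 a DKO peak, against 70.4%, and 2 had neither, namely Spink3 and Spink5. A peak of the 100 highest WT ranks lay within 50 kb of 1 of the 11, Lrig1, the relative of Lrig3, against 0.698% of all protein-coding genes. Its highest peak, in intron 2 at 94606322 on chromosome 6, had rank 45, a WT height of 33.8 over an ES height of 1.59, 3 matches and 7 CpGs, and a DKO height of 22.2 over 1.22.

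The highest WT peaks near the remaining relatives were lower than that of Lrig1. Near Spink10 the highest WT height was 22.6 at rank 230, with a DKO height of 9.04, and it lay 42812 bp past the gene. Near Spink8 the highest peak was higher in DKO, 18.5 against 14.7, in a window with 26 CpGs and no match, and near Spink2 the heights were 5.70 in WT and 5.71 in DKO at places that did not overlap. Arl4c, related to Arl4d, had a WT peak of 16.8 with 2 matches 6947 bp upstream, against 7.87 in DKO, and its highest DKO peak, 10.2, lay in exon 1 in a window with 48 CpGs. Near Arl4a the highest WT peak was 7.35 and the DKO peak it overlaps 5.54, while the highest DKO peak, 11.5, lay elsewhere. Near Lrig2 the highest WT peak was 9.45 and the DKO peak it overlaps 5.20, with the highest DKO peak, 6.43, at another place. Among the potassium channel genes, the highest WT peak near Kcnq1 was 13.5 and the DKO peak it overlaps 7.30, while the highest DKO peak, 11.1, overlaps a WT peak of 13.2. Near Kcnq3 the highest peaks, 11.2 in WT and 5.40 in DKO, lay at different places without a partner.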

How the data were processed

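Gata4 ChIP-seq of WT and DKO Flk1(+) cells was read from the deposited peak lists, 1 for each genotype, each called by the authors with DNAnexus tools over ES cells of that genotype. Reads had been mapped to mm9, and the submitters' processing notes name CASAVA 1.8.1 and cutadapt. The deposited height is a signal, the level of the authors' read density profile in the Flk1(+) or the ES library, with no stated scaling for depth. The deposited enrichment is a ratio, a fold of these heights with an ES height below 1 taken as 1, which held for all 20410 WT and 22733 DKO peaks. The deposited −log10 q-value gives the order in the list. The deposited rank served as the score, with 1 the highest. The lowest deposited enrichment was 3.00. The lists were assigned to genotypes by their labels and peak numbers. Each list has 1 library, so comparisons between lists carry no error, and heights were compared as deposited.

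Peaks were taken as the same site where their 501-base windows overlap, that is with positions within 500 bp. Genes were those of GENCODE vM1, with exons and introns of the longest coding transcript. All deposited windows equalled the mm9 genome around the position. Letters were searched on both strands of the windows. Shares over whole lists have Wilson intervals at 95% confidence. The steps were tested on simulated data. Python 3.11.15, pandas 2.3.3, NumPy 2.4.6, SciPy 1.17.1, pysam 0.24.0, samtools 1.23.1 and Matplotlib 3.10.9 were used.

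Named genes were the 4 members, the genes beside the 10 highest-ranked WT peaks, protein-coding neighbours within 50 kb, the genes nearest to member peaks, and relatives of the members from a list. Some items are not reported here. The members and lists were chosen with earlier results of these data known. Alternatives changed the distance to the gene, the overlap, the rank, the motif, the window, the scaling and the ES height.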

Additional observations from a re-analysis of the deposited data

How the results depend on the processing

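Of 35 alternatives, 18 left a count within 1.5-fold or any other value as it was, and 17 moved it, however little. A WT over DKO height ratio was turned by 0 of them, but only the scalings of the heights bore on such a ratio. The order of WT and DKO enrichment turned at Spink4 under 1 of the 35. Distances of 20 or 100 kb to the gene, and other limits on what counts as the same site, kept the counts within 1.5-fold. With the upper part of each list by rank, 6 of 16 WT peaks near the 4 genes overlapped a DKO peak in place of 10 of 21, against 39.3% of all WT peaks of that part. In the central 200 bases, 7 of 17 DKO windows held WGATAA in place of 12, against 28.9% of all DKO peaks in that window.

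Heights divided by the median of the overlapping peaks of their list (10.1 in WT, 7.97 in DKO) gave WT over DKO ratios of 2.59 for Spink4, 2.22 for Lrig3, 2.83 for Arl4d and 3.06 for Kcnq5. Heights minus the ES height, an alternative chosen after seeing the data, gave 3.26, 2.98, 3.80 and 4.17. The WT height was the higher at all 4 main peaks under each scaling. Neither scaling could have turned these ratios. The first divides each of them by the same factor, 1.27, and the ES heights were small beside the peak heights. With the ES height as given, also where below 1, the enrichment became 52.1 for Spink4 in DKO, 237 for Arl4d in WT and 16.3 for Arl4d in DKO, so that at Spink4 the DKO enrichment exceeded that of WT, 44.9. The central 200 bases held 1 CpG at Lrig3, 3 at Arl4d and 0 at Kcnq5. Without the Kcnq5 locus, or without the highest peak of each gene, both chosen after seeing the data, 7 of 15 and 6 of 17 WT peaks overlapped a DKO peak.

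No paired analysis was possible because each condition has 1 library. The depth of the libraries was not used here, so its part in the height ratios was not tested, and a peak missing from a list can lie just under the caller's thresholds.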
